A study of Mus musculus with 6 samples.

Results

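Single-cell cDNA of mouse spleen can be tagged with the cell barcode at either end of the transcript, and the comparison described here set the end labelled 5prime against the end labelled 3prime. It compared 4 of the 6 libraries of the study, namely the 2 standard 5′ and the 2 3′ libraries. The other 2 libraries came from a modified 5′ protocol, with extra dNTP and longer extension times. They entered the same fit, and so shared in the filter on low counts, the scaling and the estimate of scatter. Beyond that, their values are given only beside those of the 4. The 3′ libraries used version 3.1 of the 10x 3′ kit and the standard 5′ libraries version 2 of its 5′ kit. Full-length cDNA was sequenced without fragmentation as long Nanopore reads. All were labelled as spleen from females 10 weeks old, of the strain C57BL/6 per the series text, with no genotype or treatment given. The extraction text for replicate 2 describes islets of the pancreas instead, and which of the 2 statements holds for those libraries is not given in the sources used here. Whether the replicates are separate animals is not in the labels. The p-values therefore speak only of the scatter among libraries, part or all of which may be technical.

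Both kits prime reverse transcription with oligo(dT) on the poly(A) tail and use template switching at the far end of the cDNA. In the 3′ kit the barcode rides on the oligo(dT) primer, so it is joined where reverse transcription began. In the 5′ kit the barcode rides on the template-switch oligo, so it is joined where reverse transcription ended. Spleen holds mostly B cells, which make immunoglobulin, and T cells, which carry the T cell receptor, with smaller numbers of NK cells, macrophages, neutrophils and red cell precursors.

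The count per library before filtering ranged from 723341 (5′ replicate 1) to 2627253 (3′ replicate 2). A barcode was kept if it had 200 genes or more and no more than 20% of its counts from mitochondrial genes, which left 2331 and 4045 cells in the 3′ libraries and 861 and 3208 in the 5′ libraries. The 5′ replicate 1 library stood apart: only 34.0% of its barcodes passed, where 81.5% to 85.6% did elsewhere, and a kept cell held 332 counts in the median, where others held 488 to 606. The main counts and some other results are therefore also given without it. Not every result that changed without it is listed. Any pair of the 6 libraries shared at most 14 cell barcodes. The defining markers of the labelled tissue were present: B-like clusters held 59.0% and 56.3% of the 3′ cells and 47.0% and 56.7% of the 5′ cells, and T-like clusters held 31.1% and 32.5% against 40.5% and 29.1%. The 11 pancreas markers listed had 4 to 8 counts in sum in each of the 4 libraries, with Ins1 and Ins2 at 0. In summed libraries, fewer cells of a type and fewer transcripts per cell cannot be told apart.

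Of 11213 autosomal and mitochondrial genes tested with edgeR and the replicate number as a block, 35.7% passed an adjusted p of 0.05. The 2156 genes higher in the 5′ libraries made up 19.2% of those tested and the 1844 lower genes 16.4%, so 53.9% of calls were higher. With libraries scaled by their totals alone, which moved the median of all genes by -0.39, 962 genes were higher and 3470 lower, or 21.7% higher. The median log2 difference over all genes, 5′ minus 3′, was -0.01. A difference of at least 2-fold was called for 2254 genes, of which 1020 were higher in the 5′ libraries. The large falls outnumbered the large rises, since 306 genes fell and 124 rose by at least 4-fold. Among the 4000 called genes, 3814 had both 5′ libraries above or both below the 2 3′ libraries. The call and the lack of overlap come from the same values, so this number is a description. The share over all genes tested is not given here. No gene was at 0 in both libraries of either end while reaching 20 CPM (counts per 1000000 of a library total scaled by its TMM factor) in both of the other. Of the genes tested, 22 were at 0 in both 5′ libraries, and the number at 0 in both 3′ libraries was 0. The 5′ libraries held fewer counts in the fit, at 351335 and 1858337 against 1662470 and 2352116. A gene could also pass the filter on low counts through the 3′ libraries alone, so these numbers are a description. Without the 5′ replicate 1 library 1772 genes were higher and 1312 lower, and without the 5′ replicate 2 library 1048 and 590. Leaving out 3′ replicate 1 gave 1022 higher and 740 lower genes, and leaving out 3′ replicate 2 gave 1147 and 769.

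The 12 largest rises, among called genes with a mean of at least 50 CPM and no overlap between the ends, included Pld3, Gpx4, Cox4i1, 1110008P14Rik, Atp5o, Anxa2, Scand1, Tmem223, Selenof, Gnai2 and Rbfa. The log2 differences of the 12 ran from 2.75 to 3.72, and the largest edgeR adjusted p among them was 7.9e-09. These values chose the genes, so they are a description.

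Gpx4 encodes the glutathione peroxidase that reduces lipid peroxides in membranes. Its level was 33.1 and 19.9 CPM in the 3′ libraries and 344 and 277 CPM in the 5′ libraries, a log2 difference of 3.58 ± 0.22 (SE). Both 5′ libraries lay far above both 3′ libraries, and lack of overlap was part of the rule for naming the gene. Its annotated transcript shares 74.1% of its 31-base words with other genes, so reads could be split between copies. Selenof, another selenoprotein, which resides in the endoplasmic reticulum, had 41.9 and 51.4 CPM at the 3′ end and 350 and 342 CPM at the 5′ end (2.88 ± 0.21). Selenof shares no such words with another gene.

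Energy metabolism gave another pair of large rises. Cox4i1, a nuclear subunit of cytochrome c oxidase (chromosome 8, 120668222 to 120674207, plus strand, GRCm38/mm10), had 151 and 106 CPM in the 3′ libraries and 1353 and 1405 CPM in the 5′ libraries (3.44 ± 0.22). Atp5o, which encodes the stalk subunit of ATP synthase that confers oligomycin sensitivity, went from 42.4 and 26.9 CPM to 372 and 303 CPM (3.304 ± 0.22). For Atp5o 94.0% of the 31-base words were shared with other genes, whereas Cox4i1 shared none.

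Gnai2, the alpha subunit of an inhibitory G protein that serves chemokine receptors in lymphocytes, had 121 and 93.8 CPM at the 3′ end and 627 and 893 CPM at the 5′ end (2.83 ± 0.22). Anxa2, a calcium-dependent membrane-binding protein, had 11.9 and 25.5 CPM against 159 and 181 CPM (3.14 ± 0.24). Scand1, a nuclear SCAN-domain protein, was the most uneven of the 12, with 25.9 and 36.4 CPM at the 3′ end and 124 and 419 CPM at the 5′ end (3.14 ± 0.30). Groups did not overlap for any of these 3 genes, as the rule for naming them required.

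The 12 largest falls included Gm26917, Igha, Rps25, H2-Q10, Vdac3, S100a9, Polr2g, Psma7, Vmn1r218, Olfr1307 and Aff3, and the log2 differences of the 12 ran from -4.53 to -2.09. Gm26917, annotated as a long intergenic noncoding RNA (chromosome 17, 39843013 to 39846341, plus strand), had 1530.5 and 2390.4 CPM in the 3′ libraries and 79.6 and 89.5 CPM in the 5′ libraries. It fell by 4.53 ± 0.25 on the log2 scale (edgeR adjusted p 1.9e-13) and gave the largest fall of any gene that met the rule.

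Rps25, a protein of the small ribosomal subunit (chromosome 9, 44407139 to 44410427, plus strand), had 994 and 670.5 CPM at the 3′ end and 44.6 and 50.3 CPM at the 5′ end (-4.02 ± 0.24, edgeR adjusted p 9.5e-13). Both 5′ libraries lay far below both 3′ libraries, and lack of overlap was part of the rule for naming the gene. Of the 31-base words of Rps25, 27.4% occur in other genes.

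Psma7, an alpha subunit of the 20S proteasome core, had 257 and 317 CPM at the 3′ end and 66.8 and 60.3 CPM at the 5′ end (-2.21 ± 0.23). Polr2g, a subunit of RNA polymerase II, had 101 and 149 CPM against 31.8 and 22.8 CPM (-2.39 ± 0.27). H2-Q10, a secreted class I molecule of the major histocompatibility complex, had 210 and 215 CPM against 38.2 and 24.6 CPM (-2.88 ± 0.25). Vdac3, a pore of the mitochondrial outer membrane, had 95.1 and 94.1 CPM against 12.7 and 15.2 CPM (-2.62 ± 0.29).

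Igha and S100a9 were the falls that rested most on single libraries. Igha, the constant region of immunoglobulin A, had 291 and 176 CPM at the 3′ end and 3.18 and 31.6 CPM at the 5′ end (-4.23 ± 0.79, edgeR adjusted p 1.5e-04). The modified 5′ libraries had 12.4 and 618 CPM, the edgeR adjusted p was 0.084 without the replicate block, and in B-like cells alone Igha differed by 1.70 in the other direction. A plasma-like cluster was found in the replicate 2 libraries only, with 31 cells at the 3′ end and 18 at the standard 5′ end. S100a9, a calcium-binding protein abundant in neutrophils, had 84.3 and 230 CPM against 3.18 and 36.9 CPM (-2.54 ± 0.37), and its edgeR adjusted p was 0.0839 without 3′ replicate 2. The other 22 of the 24 genes kept their call and direction in each alternative in which they were tested.

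**Figure D1:**
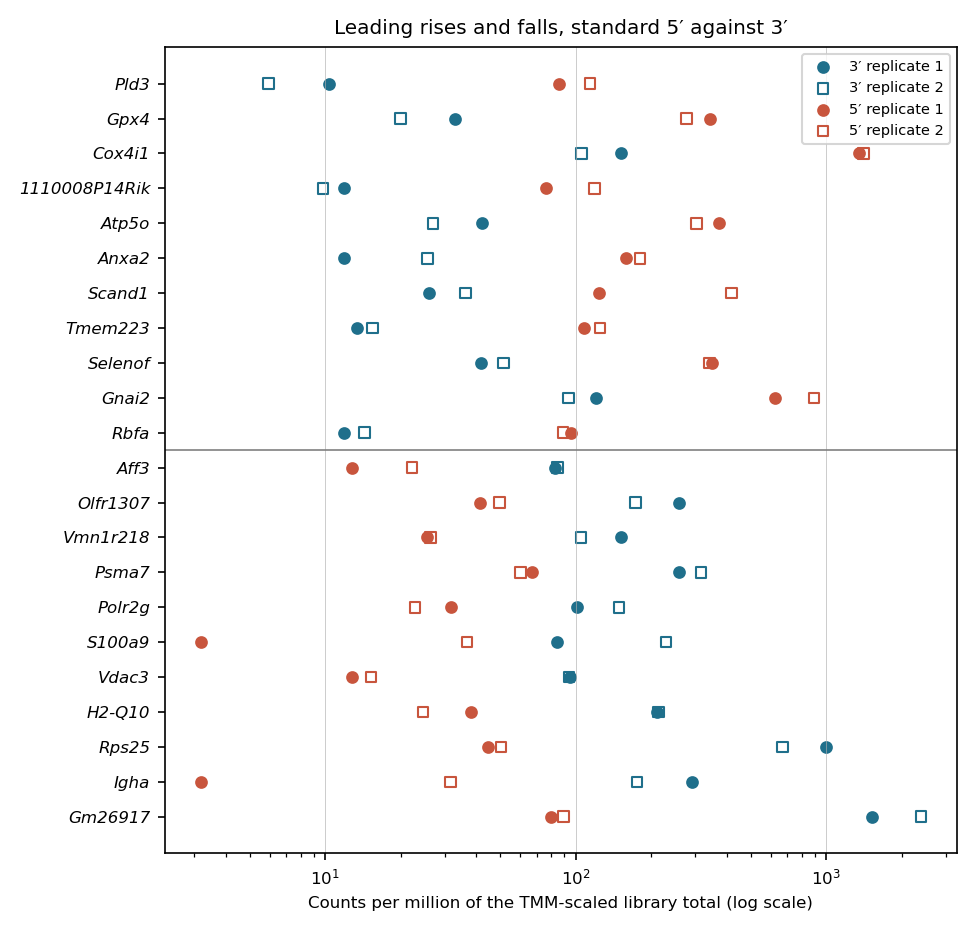
Level of the 11 named rises and 11 named falls, in CPM (log axis), with 1 point for each replicate of the 3′ and standard 5′ libraries. The standard 5′ points of Cox4i1 lie at 1353 and 1405 CPM against 151 and 106 CPM in the 3′ libraries, and those of Rps25 at 44.6 and 50.3 CPM against 994 and 670.5 CPM.

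The leading rises were shorter transcripts than the leading falls, and both sets had a lower median length than all genes tested. By the annotated principal transcript of GENCODE release M21, the 12 rises had a median spliced length of 876.5 nt and a median GC content of 57.4%, against 2265.5 nt and 50.6% for the 12 falls. Over all genes tested the medians were 2880 nt and 49.4%, and over all lower genes 4072 nt and 45.6%. All 12 rises were protein coding, as were 10 of the falls. An A-rich tract, meaning at least 12 A in 15 bases and more than 100 bases from the transcript's end, was present in 1 of the rises and 3 of the falls. Those are 8.33% and 25.0%, against 35.7% of all genes tested. Oligo(dT) can prime on such a tract, which is why the sequences are shown. The 3 falls with the tract are given first, then Gnai2, the rise with one, then 4 of the leading rises without one, each as the 30 bases around the transcript's most A-rich 15 bases, which are in capitals. The sequences are 5′ to 3′ on the sense strand, taken from the GENCODE M21 transcripts.
Vmn1r218: attgtgatTAAAAAAAAAAAAAActgcatg
Olfr1307: aataaactAAAAAAAAAATAAAAcagagta
Aff3: ataccaatAAACAAAAATGAAAAgatgctc
Gnai2: gtagctttAAAGAAAAAGAAAAAggaaaaa
Pld3: tgacacccGATATAATCAAGAAAcaccaat
1110008P14Rik: gggcacggAAGGAGAGAATGACAgcttcgg
Atp5o: aatgacatCACGAAAAGGGAAAAgttctcc
Anxa2: cgcctatcAGAGAAGGACCAAAAaggagct
The capitals hold 14, 14 and 12 A in the falls, 13 A in Gnai2, and 9, 8, 9 and 9 A in the other rises. These genes were picked by whether they hold the tract, so the number of A is a description of the choice, and the other 9 falls held none.

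Vmn1r218 lies on chromosome 13 (23133155 to 23146112, plus strand), and its window spans bases 8380 to 8409 of an annotated transcript of 10430 nt. This vomeronasal receptor, of a family that senses pheromones, had 152 and 105 CPM at the 3′ end and 25.5 and 26.3 CPM at the 5′ end (-2.17 ± 0.24). Olfr1307, an olfactory receptor on chromosome 2 (111930116 to 111949440, minus strand), had 258 and 174 CPM against 41.4 and 49.7 CPM (-2.10 ± 0.23). Its window lies at bases 12327 to 12356 of 15582. Aff3, a nuclear protein linked to transcription elongation and expressed in lymphocytes, lies on chromosome 1 (38177326 to 38664955, minus strand), and its window is at bases 2649 to 2678 of 5857. It had 82.7 and 84.7 CPM against 12.7 and 22.2 CPM (-2.09 ± 0.26). In all 3 genes both 5′ libraries were below both 3′ libraries, as the rule for naming them required.

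Among the rises shown, Pld3, a nuclease of the endolysosome (chromosome 7, 27532000 to 27553218, minus strand), had 10.3 and 5.95 CPM in the 3′ libraries and 85.9 and 114 CPM in the 5′ libraries. Its log2 difference of 3.72 ± 0.28 was the largest rise of any gene that met the rule. 1110008P14Rik (chromosome 2, 32377097 to 32381938, minus strand) had 11.9 and 9.80 CPM against 76.4 and 119 CPM (3.33 ± 0.28).

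Over all genes the tract was more frequent among falls. It was present in 15.7% of the genes higher in the 5′ libraries, 54.2% of the lower genes and 35.7% of all genes tested. Of the 3605 protein-coding genes with a tract, 9.21% rose and 23.1% fell, with a median difference of -0.29. Of the 6535 without one, 27.0% rose and 10.1% fell, with a median of 0.26. Long transcripts hold more tracts, and at like length the 2 sets were closer. In the longest quintile of transcripts the median was -0.55 with a tract (1409 genes) and -0.50 without (618 genes), and in the shortest quintile it was 0.48 (190 genes) and 0.69 (1837 genes). Only annotated transcripts were searched, so tracts in introns are not covered.

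Of the gene properties compared, spliced length went most closely with the difference between the ends. The 10140 protein-coding genes were cut into quintiles of 2028 genes, with median lengths of 1202, 2099, 2981, 4154 and 6548 nt. The median log2 difference went down from quintile to quintile, from 0.67 through 0.42, 0.04 and -0.26 to -0.53. The share of genes that rose went from 51.2% in the shortest quintile to 2.07% in the longest, while the share that fell went from 5.52% to 32.1%. Each replicate pair gave the same order, from 0.68 to -0.56 in replicate 1 and from 0.60 to -0.51 in replicate 2. Under scaling by library totals alone, where the median of all genes moved by -0.39, the medians were 0.28 in the shortest and -0.93 in the longest quintile. Spearman's rho across the 10140 genes was -0.52, a description over genes that share their libraries and are not independent replicates.

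The counts themselves show the same shift. Averaged over all counts with an annotated length, a count in the 3′ libraries came from a transcript of 3089 and 2964 nt, and a count in the 5′ libraries from a transcript of 2299.8 and 2315 nt. Nuclear protein-coding transcripts of up to 1500 nt held 32.0% and 29.1% of the counts at the 3′ end and 41.3% and 39.03% at the 5′ end. Those over 5000 nt held 14.5% and 13.1% against 7.84% and 7.42%. Neither share overlapped between the ends, and the two-sided exact permutation p of 0.33 was the smallest that 2 libraries against 2 can give.

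Length of the coding part and of the 3′ untranslated region each went with the difference, and the 5′ untranslated region less so. The medians ran from 0.56 to -0.49 over quintiles of coding length, from 0.48 to -0.42 over quintiles of 3′ untranslated length and from 0.15 to -0.12 over quintiles of 5′ untranslated length. Single-exon genes (225) had a median of 0.01 and genes with introns (9909) a median of 0.05. GC content ran the other way to length, from -0.40 in the quintile with the lowest GC to 0.53 in the quintile with the highest. Length and GC were themselves related (Spearman's rho -0.29 across genes), and both held at like values of the other. Short transcripts of high GC had a median of 0.90 (623 genes) and short ones of low GC 0.21 (189 genes), while long transcripts of high GC had -0.17 (181 genes) and long ones of low GC -0.71 (661 genes).

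**Figure D2:**
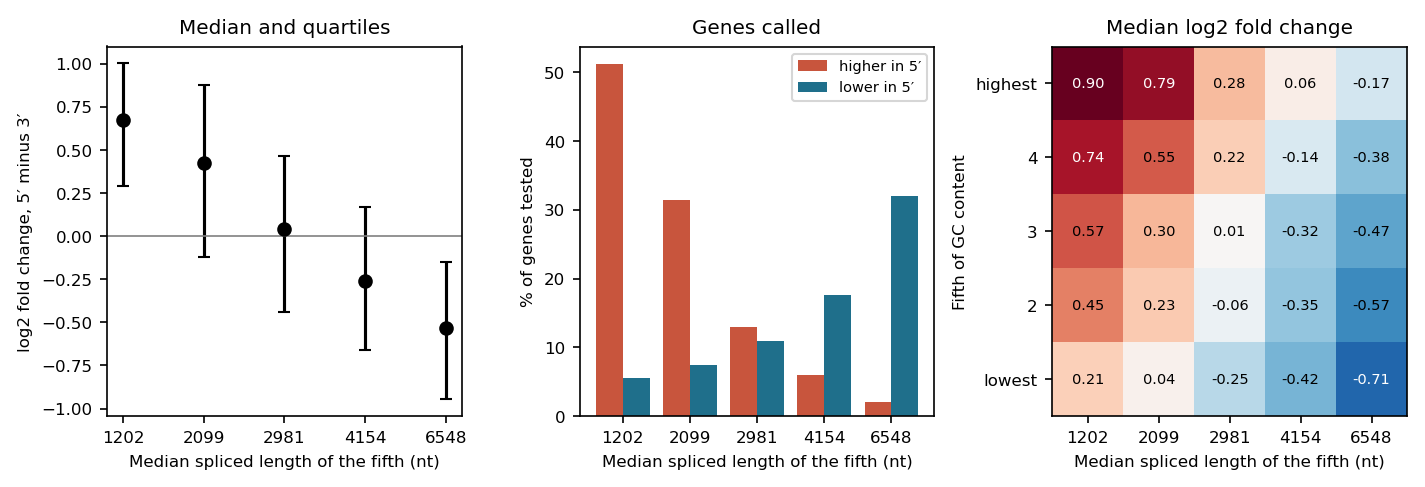
Protein-coding genes by quintiles of spliced transcript length (x axes, median length in nt): the median log2 difference, 5′ minus 3′, with bars for the quartiles, the percentage of genes called higher and lower, and the median by quintiles of length and GC content together (numbers in the cells, red above 0 and blue below). Medians run from 0.67 in the shortest to -0.53 in the longest quintile, and from 0.90 for short transcripts of high GC to -0.71 for long ones of low GC.

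Functions were described by 55 gene lists, and genes of protein synthesis leaned towards the 5′ end. The ribosome is built from many small, abundant proteins, and of 47 tested proteins of its large subunit 30 rose and 1 fell, with a median of 0.58 against -0.01 over all genes. Of 31 small-subunit proteins 16 rose and 2 fell (median 0.57). Rplp0, of the ribosomal stalk, had 4094 and 5409 CPM at the 3′ end and 10332 and 9689.7 CPM at the 5′ end (1.09 ± 0.19). Rpl29 rose by 1.80 ± 0.19, although 77.9% of its 31-base words are shared with other genes. Since every fit that leaves out 1 of the 4 libraries called fewer genes, as given above, the smallest count over those fits in the list's more frequent direction is given with the library concerned where it is lower by more than 1.5 times. Under library totals alone the medians of the lists were lower by about the shift of all genes given above, and the counts are given where the balance of rises and falls then changed. The number of large-subunit genes that rose was 10 without 3′ replicate 2, and 7 small-subunit genes rose without 5′ replicate 2. Set against genes of like length, the medians were 0.05 and 0.01, so as lists the ribosomal genes lay near other genes of like length. Of 78 mitochondrial ribosomal proteins 45 rose and 3 fell (median 0.63), with Mrpl4 up by 1.83 ± 0.21 and Mrps35 down by 1.93, which a transcript of 4162 nt encodes. That count was 17 without 5′ replicate 2.

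Translation factors differed less evenly. Of initiation and elongation factors 38.5% rose and 9.23% fell, and of aminoacyl-tRNA synthetases 26.3% and 10.5%, against 19.2% and 16.4% of all genes tested. Of 65 initiation and elongation factors 25 rose and 6 fell (median 0.41, and 13 rises without 3′ replicate 2). Under library totals 13 rose and 12 fell, with a median of 0.01. Eef1a1, which brings aminoacyl-tRNA to the ribosome, had 4363 and 5065 CPM at the 3′ end and 11987 and 12360.0 CPM at the 5′ end (1.37 ± 0.19). Eif3l, a subunit of initiation factor 3, rose by 1.74 ± 0.21. Among 19 aminoacyl-tRNA synthetases 5 rose and 2 fell (median 0.09), 1 rose without 3′ replicate 2 or without 5′ replicate 2, and 1 rose and 6 fell under library totals (-0.30). Vars, the most abundant, had 107 and 141 CPM against 118 and 139 CPM.

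Energy metabolism was split by the genome that encodes it. Among nuclear genes of the respiratory chain many rose and none fell: 31 of 44 for complex I (median 0.69), 10 of 16 for complexes II and III (0.69), 9 of 19 for complex IV (0.54) and 16 of 18 for ATP synthase (0.86). Atp5g3, which encodes the rotor ring of ATP synthase, had 161 and 212 CPM against 831 and 923 CPM (2.23 ± 0.20). Ndufa10, of complex I, had 35.2 and 31.1 CPM against 124 and 170 CPM (2.19 ± 0.22), and Uqcrc1, a core subunit of complex III, rose by 1.61 ± 0.20. In each of these 3 genes both 5′ libraries were above both 3′ libraries. The counts were 8 for complex I without 5′ replicate 2, 4 for complexes II and III without 3′ replicate 1, 4 for complex IV without 3′ replicate 2 and 7 for ATP synthase without 3′ replicate 2. Set against genes of like length, the medians of these 4 lists were 0.17, 0.35, 0.17 and 0.37.

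The 11 tested mRNAs of the mitochondrial genome, which are short, intronless transcripts of the same enzyme complexes, mostly went the other way. Of these, 7 fell and 1 rose, with a median of -0.81, and -1.31 against genes of like length. mt-Nd1, of complex I, had 2605 and 2603 CPM in the 3′ libraries and 1381 and 1570 CPM in the 5′ libraries (-0.82 ± 0.19). mt-Nd4 rose by 0.58 ± 0.19, from 2256 and 2208 CPM to 3559 and 3095 CPM. mt-Co1, the most abundant, had 6518 and 6741 CPM against 7693 and 6579 CPM, with overlapping ends. mt-Atp6 fell by 2.31 ± 0.37, although it overlaps mt-Atp8 and mt-Co3 on the same strand and its reads may be split among them. Fewer of the 11 fell whichever of the 4 libraries was left out, while the median stayed between -0.84 and -0.62.

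Central carbon metabolism showed rises and no falls. Of 13 glycolysis genes 7 rose and none fell (median 1.03, and 0.70 against genes of like length). Eno1, or enolase, had 140 and 204 CPM at the 3′ end and 611 and 729 CPM at the 5′ end (1.97 ± 0.20). Ldha, which interconverts pyruvate and lactate, rose by 1.64 ± 0.20 and Aldoa, an aldolase, by 1.53 ± 0.19. Eno1 shares 77.2% of its 31-base words with other genes, Ldha 35.1% and Aldoa none. Of 14 tricarboxylic acid cycle genes 9 rose and none fell (median 0.92, and 0.70 against genes of like length), among them Mdh2, a malate dehydrogenase (151 and 212 CPM against 391 and 440.5 CPM). Both lists kept at least 6 rises when any 1 of the 4 libraries was left out.

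Most tested genes of the proteasome, which degrades ubiquitin-tagged proteins, were higher at the 5′ end. Of 48 subunits and activators 34 rose and 3 fell (median 0.70), and 12 rose without 3′ replicate 1. Psmb7, a beta subunit of the core, had 18.1 and 25.2 CPM against 89.1 and 97.1 CPM (2.08 ± 0.23), while Psma7, of the same core particle, fell by 2.21 as given above. Psmd6, of the regulatory cap, fell by 1.61 ± 0.26. Psmb8, the immunoproteasome subunit that lymphoid cells express, had 466 and 732 CPM against 939 and 1151 CPM (0.82 ± 0.19). Deubiquitinases, which are long genes (median 4717 nt), had 7 of 38 fall and 2 rise (median -0.32, and 0.05 against genes of like length). The 18.4% that fell was close to the 16.4% of all genes tested. Without 5′ replicate 2 only 1 of them fell.

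In the secretory pathway, of 31 genes of translocation into and folding in the endoplasmic reticulum 14 rose and none fell (median 0.52, and 6 rises without 3′ replicate 1). Under library totals 6 rose and 5 fell (0.12). Pdia3, a disulfide isomerase that helps load class I molecules, had 105.5 and 105 CPM against 376 and 358 CPM (1.79 ± 0.20). Of the tested coat proteins of vesicles 16.7% rose and 22.2% fell, against 19.2% and 16.4% of all genes tested. Coat proteins of vesicles moved both ways: of 18, 3 rose and 4 fell (2 without 3′ replicate 1), with Cope up by 1.68 ± 0.21 on a transcript of 1300 nt and Arcn1 down by 1.52 ± 0.23 on a transcript of 4072 nt. Of 26 lysosomal genes 14 rose and 2 fell (median 0.58, and 8 rises without 3′ replicate 1), including Psap, the precursor of the saposins (195 and 308 CPM against 637 and 715 CPM).

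The cytoskeleton list had the largest share of rises among the lists. Of 23 actin, tubulin, thymosin and myosin genes 21 rose and none fell, with a median of 1.18, and 0.74 against genes of like length. Actb, or beta-actin, had 5021 and 5497 CPM in the 3′ libraries and 12576 and 14945 CPM in the 5′ libraries (1.38 ± 0.19, edgeR adjusted p 2.4e-06). Pfn1, which supplies actin monomers, had 1720 and 2234 CPM against 5195 and 6001 CPM (1.51 ± 0.19). Tuba1c, an alpha-tubulin, rose by 2.18 ± 0.21 with 63.9% of its words shared. At least 18 of the 23 rose whichever of the 4 libraries was left out. Under library totals alone 15 rose and 1 fell.

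**Figure D3:**
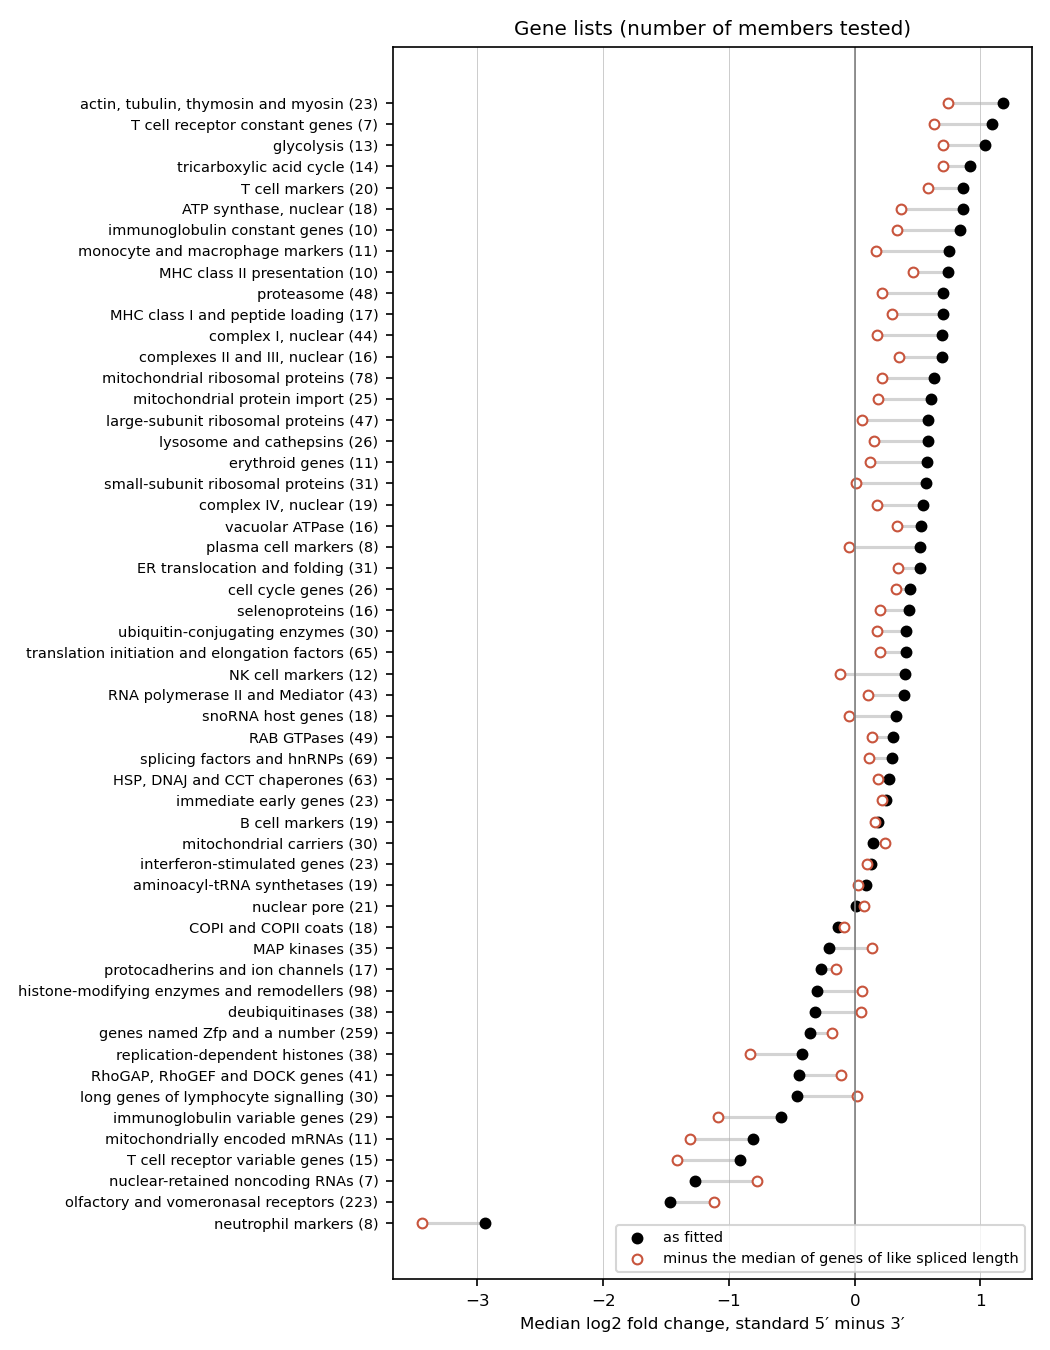
Median log2 difference, 5′ minus 3′, of the tested members of each gene list (x axis, TMM scale; number tested in brackets), as fitted (filled) and minus the median of genes of like spliced length (open). The cytoskeleton list lies at 1.18, nuclear ATP synthase genes at 0.86, mitochondrially encoded mRNAs at -0.81 and olfactory and vomeronasal receptors at -1.47, against -0.01 over all genes tested.

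Chromatin regulators and a list of long genes of lymphocyte signalling held more falls than rises. Of 98 histone-modifying enzymes and remodellers 30 fell, which is 30.6% against 16.4% of all genes tested, and 5 rose (median -0.30), though against genes of like length the median was 0.05 and 8 fell without 5′ replicate 2. Kmt2d, a histone methyltransferase with a transcript of 19823 nt, had 165 and 132 CPM against 25.5 and 43.9 CPM (-1.88 ± 0.24). Of 259 genes named Zfp and a number, mostly zinc finger proteins, 45 fell and 20 rose (median -0.36), and 12 fell without 5′ replicate 2. The 17.4% that fell was close to the share of all genes. Of 30 long genes of lymphocyte signalling 12 fell and 1 rose (median -0.46, and 0.02 against genes of like length), and 4 fell without 3′ replicate 1. Macf1, a spectraplakin with a transcript of 23495 nt, had 579 and 495 CPM against 286 and 256 CPM (-0.98 ± 0.19). Ptprc, the phosphatase CD45 of white blood cells, had 1070.3 and 939.9 CPM against 653 and 661 CPM (-0.61 ± 0.19). MAP kinases moved both ways, with 4 of 35 up and 5 down (median -0.20). The 11.4% that rose and the 14.3% that fell were below the 19.2% and 16.4% of all genes tested. Without 3′ replicate 1 or without 5′ replicate 2 the number that fell was 1, and under library totals 1 rose and 15 fell. Of these, Map3k1, a kinase upstream of the JNK pathway, fell by 2.05 ± 0.22 while Map2k2, a kinase of the ERK pathway with a shorter transcript, rose by 2.10 ± 0.21.

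Splicing and transcription machinery held more rises than falls on the TMM scale. Of the splicing factors 29.0% rose and 11.6% fell, and of RNA polymerase II and Mediator genes 32.6% and 11.6%. Over all genes tested 19.2% rose and 16.4% fell, so falls were not more frequent in these lists. Of 69 splicing factors 20 rose and 8 fell (median 0.29, and 11 rises without 3′ replicate 1). Under library totals 9 rose and 20 fell (-0.10). Sf3b4, of the U2 particle, had 27.9 and 26.3 CPM against 162 and 184 CPM (2.68 ± 0.22), while Srsf3, a serine and arginine-rich splicing factor, had 435 and 480 CPM against 127 and 138 CPM (-1.78 ± 0.20). Of 43 genes of RNA polymerase II and Mediator 14 rose and 5 fell (median 0.39), and 3 rose without 5′ replicate 2. Under library totals 3 rose and 9 fell, with a median of 0.0024. Med30, of Mediator, rose by 2.45 ± 0.23, and Polr2g fell as given above.

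Long intergenic, antisense and sense intronic noncoding RNAs had many more falls than rises. Of 343 long intergenic noncoding RNAs 133 fell and 6 rose (median -1.06), of 317 antisense genes 103 fell and 15 rose (-0.92), and of 55 sense intronic genes 32 fell and 1 rose (-1.50). A gene could pass the filter on low counts through the 3′ libraries alone, so these numbers are a description. Without 5′ replicate 2 the falls were 39, 33 and 12, and the medians -1.05, -0.96 and -1.54. Other noncoding classes differed: of 154 processed transcripts 39 fell and 10 rose (-0.44), of 30 RNAs from bidirectional promoters 4 fell and 2 rose (0.27, and -0.12 under library totals and without 5′ replicate 2), and of 18 snoRNA host genes 2 fell and 3 rose (0.33, and -0.07 under library totals), of which none rose without 3′ replicate 1 or without 5′ replicate 2. Without 5′ replicate 2 the processed transcripts had 12 falls and the bidirectional-promoter RNAs 1. Falls made up 25.3% of processed transcripts, 13.3% of bidirectional-promoter RNAs and 11.1% of snoRNA host genes, against 16.4% of all genes tested. Rises made up 6.49%, 6.67% and 16.7%, against 19.2%. Bidirectional-promoter RNAs and snoRNA host genes were thus below the shares of all genes in both directions. Of 10140 protein-coding genes 2099 rose and 1491 fell (0.05). Against genes of like length the medians of long intergenic, antisense and sense intronic RNAs were -1.17, -1.05 and -1.82. Their share of the counts was lower at the 5′ end in both replicates: long intergenic RNA held 4.72% and 4.48% at the 3′ end and 1.90% and 1.93% at the 5′ end, antisense genes 1.00% and 0.877% against 0.401% and 0.442%, and sense intronic genes 0.243% and 0.199% against 0.0860% and 0.0834%. The ends did not overlap in any of the 3 shares, with an exact permutation p of 0.33, the smallest possible.

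Malat1, a nuclear RNA and the most abundant of the class, had 15286 and 10070 CPM in the 3′ libraries and 5268 and 4646 CPM in the 5′ libraries (-1.33 ± 0.19). Without it the long intergenic share was 2.96% and 3.28% against 1.43% and 1.50%. Of 7 nuclear-retained noncoding RNAs 5 fell and 1 rose (median -1.27), among them Kcnq1ot1 (-1.53 ± 0.21), which is transcribed across the Kcnq1 imprinted region. Without 3′ replicate 2 the number that fell was 3. Gm15356, antisense to March1, had 47.6 and 28.3 CPM against 3.18 and 4.09 CPM (-3.15 ± 0.54). Gm47664, within an intron of Elmo1 on the same strand, had 45.0 and 31.1 CPM against 19.1 and 4.68 CPM (-2.21 ± 0.41). The sources used here do not say whether counting used strand or separated an intronic gene from its host, so such genes are uncertain.

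Replication-dependent histone mRNAs end in a stem loop and mostly lack a poly(A) tail. Of 38 tested 10 fell and none rose, but the replicate pairs disagreed in sign (median -1.04 in replicate 1 and 0.22 in replicate 2). Hist1h1b, a linker histone, had 1105 and 114 CPM against 204 and 35.1 CPM (-2.17 ± 0.34). No member fell without the replicate block, so the list is not described as lower.

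Olfactory and vomeronasal receptor genes, which are typical of sensory neurons and not of spleen, were lower at the 5′ end. Only 223 of the 556 listed genes passed the filter on low counts, which a gene could pass through the 3′ libraries alone, so their numbers are a description: 143 fell and 1 rose, with a median of -1.47, and -1.12 against genes of like length. Without 5′ replicate 1 the count was 101, and without 5′ replicate 2 it was 43. Their annotated transcripts are long (median 4951 nt). Together the listed genes held 0.987% and 0.769% of the counts at the 3′ end and 0.2999% and 0.258% at the 5′ end, with no overlap. Vmn1r47 fell by 3.39 ± 0.34, from 86.9 and 65.1 CPM to 12.7 and 5.26 CPM. Olfr1152, the most abundant, had 249 and 203 CPM against 267 and 195 CPM, and its ends overlapped. The family is large and alike in sequence (Olfr1307 shares 25.3% of its words), so single members are uncertain.

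**Figure D4:**
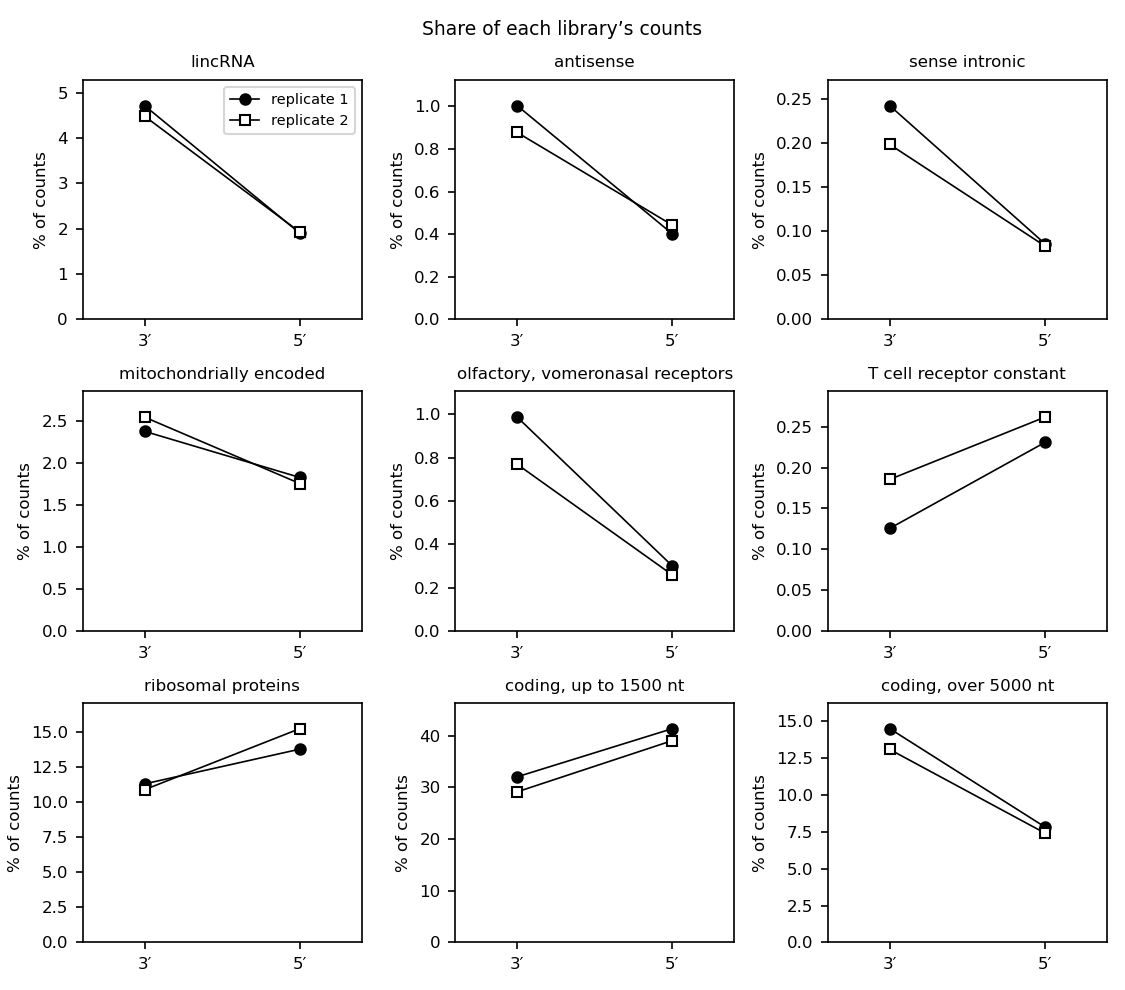
Share of the counts of each library (percent, axes from 0) held by 9 gene classes at the 3′ and the standard 5′ end, with 1 point per library and a line joining libraries of the same replicate number. Long intergenic RNA lies at 4.72% and 4.48% in the 3′ libraries and 1.90% and 1.93% in the standard 5′ libraries, and ribosomal proteins at 11.3% and 10.9% against 13.7% and 15.2%.

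Constant genes of the T cell receptor were higher at the 5′ end. The T cell receptor pairs a constant region with a variable segment picked from many, and of 7 constant genes 6 rose and none fell (median 1.10, and 0.63 against genes of like length). Trac, the constant part of the alpha chain, had 192 and 239 CPM in the 3′ libraries and 579 and 613 CPM in the 5′ libraries (1.47 ± 0.20). Trbc2, of the beta chain, had 548 and 847 CPM against 1343 and 1543 CPM (1.07 ± 0.20), with 48.5% of its words shared. Without 3′ replicate 1 the number that rose was 3. Within T-like cells alone 2 of 6 rose (median 0.54), and within B-like cells 0 of 3 (0.03). T-like cells made up 31.1% and 32.5% of the 3′ cells and 40.5% and 29.1% of the 5′ cells, so the T-like share was higher at the 5′ end in replicate 1 and lower in replicate 2. Among variable and joining segments of the receptor 13.3% fell, against 16.4% of all genes tested. Of 15 tested variable and joining segments none rose and 2 fell, and none fell without 3′ replicate 1, without 3′ replicate 2 or without 5′ replicate 2.

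Of 20 T cell markers 14 rose and none fell (median 0.86). Thy1, a surface glycoprotein of T cells, had 61.0 and 44.1 CPM against 223 and 245 CPM (2.19 ± 0.21). Cd3e, a signalling chain of the receptor, had 156 and 202 CPM against 490 and 545 CPM (1.53 ± 0.20), and Lat, the adaptor that links the receptor to its downstream enzymes, rose by 1.60 ± 0.21. Within T-like cells alone, where the share of T cells in the library does not enter, 11 of 20 rose (median 0.66). In B-like cells 11 were tested, of which none rose and 1 fell (median -0.07).

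Of 19 B cell markers 7 rose and 1 fell (median 0.18, and 4 rises without 3′ replicate 1). Under library totals 4 rose and 7 fell (-0.21). Cd79a, a signalling chain of the B cell receptor, had 1375 and 1933 CPM against 3116 and 4167 CPM (1.14 ± 0.19). Immunoglobulin constant genes moved both ways, with 5 of 10 up (3 without 3′ replicate 1) and 2 down, and their share of the counts overlapped between the ends (1.31% and 3.61% against 3.09% and 3.47%, exact permutation p 1.0). Igkc, the kappa light chain, had 5332 and 19780.0 CPM against 18930.0 and 22271 CPM (0.92 ± 0.26).

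Genes of antigen presentation were mostly higher at the 5′ end. Of 17 class I and peptide-loading genes 12 rose and 2 fell (median 0.70), and of 10 class II genes 7 rose and 1 fell (0.74). H2-K1, a classical class I heavy chain, had 1638 and 2417 CPM against 3858 and 4594 CPM (1.08 ± 0.19). H2-Aa, a class II alpha chain, had 2131 and 3109.5 CPM against 4574 and 6713 CPM (1.11 ± 0.19). The counts of rises were 4 and 5 without 3′ replicate 1.

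Neutrophil markers were lower at the 5′ end, and their numbers rest on few counts. The whole list of 10 held 499 and 1601 counts in the 3′ libraries, 12 and 146 in the 5′ libraries and 508 and 681 in the modified 5′ libraries. Of 8 tested 6 fell and none rose, with a median of -2.94, or -2.57 with Ltf, which was at 0 in both 5′ libraries, at its bound. With all barcodes kept the median was -1.34, and without 3′ replicate 2 the number that fell was 3. No neutrophil-like cluster was found in any of the 4 libraries, and the number of neutrophils cannot be told apart from their RNA content.

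The comparison was repeated within B-like and within T-like cells. Summed over B-like cells 1543 genes rose and 1336 fell, and over T-like cells 909 rose and 918 fell. All 1348 genes called in both classes had the same sign. Across 6253 genes of at least 20 CPM Pearson's r between the 2 sets of differences was 0.843, a description over genes whose values come from the same libraries. Cox4i1 rose by 3.32 ± 0.23 in B-like and 3.43 ± 0.24 in T-like cells, and Rps25 differed by -3.97 and -4.04. A test of the difference between the classes, with libraries as blocks, called 7 of 6075 genes (0.115%), and 290 had an unadjusted p under 0.05. The cytoskeleton list had medians of 1.06 and 1.05 in the 2 classes, and the olfactory and vomeronasal list -1.50 and -1.49.

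**Figure D5:**
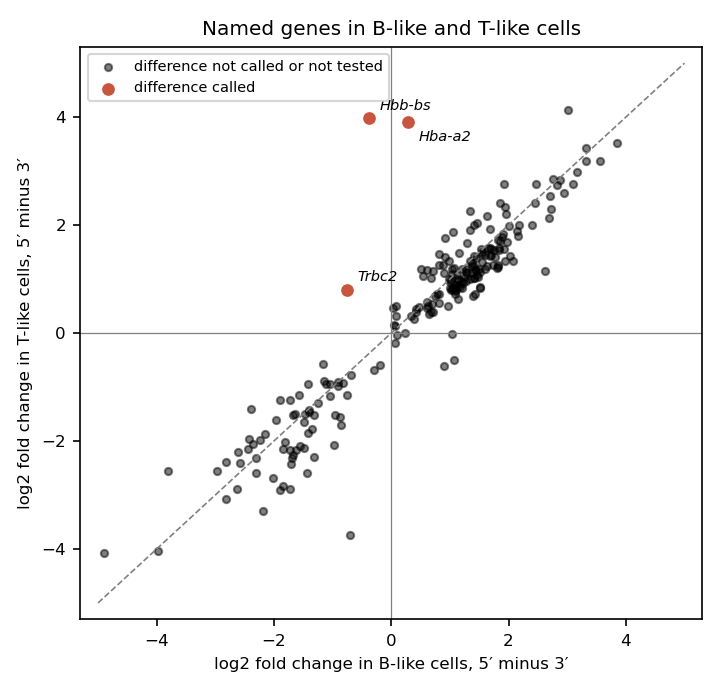
Log2 difference, 5′ minus 3′, in T-like cells (y axis) against B-like cells (x axis) for 223 named genes tested in both classes, with 1 point per gene, the line of equal values, and in red the 3 genes whose difference between the classes was called. Cox4i1 lies at 3.32 and 3.43 and Rps25 at -3.97 and -4.04, near the line.

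The modified 5′ libraries, which also carry the barcode at the template-switch end, gave values beside those of the standard 5′ libraries for most leading genes. Cox4i1 had 1310 and 1308 CPM there, Psma7 80.3 and 63.1 CPM and Gm26917 116 and 94.2 CPM. Malat1 had 6600 and 5619 CPM. The mean annotated length per count was 2314 and 2393 nt, and long intergenic RNA held 2.60% and 2.25% of the counts. S100a9 stood nearer to the 3′ libraries, at 209 and 142 CPM.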

How the data were processed

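The matrices the authors deposited hold raw, whole-number counts for each barcode and gene symbol, with no normalization. The genome build mm10 and Seurat are named per the submitters' processing notes, while the sources used here name no aligner or annotation and do not say whether strand or molecular identifiers were used. Counts were summed over barcodes that had 200 or more genes and no more than 20% mitochondrial counts. X-linked and Y-linked genes (563) were left out. Doublets were not called.

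The sums of all 6 libraries were fitted in 1 model with edgeR 4.0.16 (R 4.3.3, quasi-likelihood test, TMM, filterByExpr, Benjamini-Hochberg adjustment at 0.05), with the replicate number as a block. TMM factors were 1.16 and 1.21 (3′), 0.894 and 0.92 (5′) and 0.911 and 0.944 (modified 5′). The residual degrees of freedom were 2 and the common biological coefficient of variation 0.141. Libraries of the same number deviated together, with correlations of 0.593, 0.474 and 0.389 over 6758 genes. The pairing comes from the numbers and the shared extraction text, not from a stated animal. No library pair agreed within sampling noise (smallest chi-square per degree of freedom 3.43). On counts simulated for this comparison over 11213 genes, 56 of 100 changes of 1 log2 unit and 98 of 100 of 2 log2 units were recovered, with 8 false calls. Each simulated gene had the common scatter, and 200 genes were changed, as many up as down. Recovery and false calls for genes of larger scatter, or with as many changes as were called here, were not measured.

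Named genes are the 12 largest rises and falls among called genes whose mean over the 4 libraries was 50 CPM or more, with no overlap between the ends; 2 of these 24 are not reported here. For each list they are up to 4 called members of at least 20 CPM with the largest difference, or the most abundant member, and for each biotype up to 3. The comparison, its lists and tests were chosen with earlier results of these data known. Gene models are those of GENCODE M21, with the principal transcript. Values against genes of like length subtract the median of 1 of 20 length bins, an alternative added after seeing the data. Words are 31 bases long. Cells were clustered per library with scanpy 1.11.5 (2000 variable genes, 30 components, 15 neighbours, resolution 0.5), and a cluster was named from at least 3 of a type's markers among its top 50 genes.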

Additional observations from a re-analysis of the deposited data

Results flagged for a closer look

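The 3 genes below differed between T-like and B-like cells in how far the 5′ and 3′ ends differed, by the test of that difference in edgeR with libraries as blocks, which was added after seeing the data and called 7 of 6075 genes. Hba-a2, an alpha-globin gene, had a T-like minus B-like difference of 3.37 (adjusted p 4.3e-04, edgeR): the 5′ minus 3′ difference was 0.29 in B-like and 3.91 in T-like cells. Hbb-bs, a beta-globin gene, had a difference of 3.31 (adjusted p 3.1e-04, edgeR), with -0.37 in B-like and 3.99 in T-like cells. In T-like cells Hbb-bs stood at 529 and 9.05 CPM in the 3′ libraries and 787 and 738 CPM in the 5′ libraries, so replicate 2 carried most of the difference. In B-like cells Hbb-bs stood at 4322 and 439 CPM against 3334 and 274 CPM. Neither B nor T cells make globin, and the part of free or red cell RNA in these values was not tested. Trbc2, a T cell receptor constant gene, had a difference of 1.61 (adjusted p 0.015, edgeR), with -0.76 in B-like and 0.81 in T-like cells. Its level in T-like cells was 2044 and 2924 CPM at the 3′ end and 3928 and 4587 CPM at the 5′ end, and in B-like cells 18.03 and 50.0 CPM against 61.2 and 11.8 CPM.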

How the results depend on the processing

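Genes called numbered 4000, of which 2156 were higher and 1844 lower in the 5′ libraries. The numbers called, higher and lower were 2639, 1414 and 1225 without the replicate block, 1829, 874 and 955 in the 4 libraries without the block, 1646, 1050 and 596 with DESeq2, 1887, 983 and 904 with libraries thinned to the smallest total, and 1827, 909 and 918 in T-like cells. With library totals alone 962 genes were higher and 3470 lower, so 21.7% of calls were higher, against 53.9%. Leaving out 1 of the 6 libraries gave 1638 to 4429 called, 1022 to 2431 higher and 590 to 2012 lower. All 2639 genes called without the block were also called with it, with the same sign.

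Medians under library totals were 0.19 for large-subunit ribosomal proteins, 0.30 for complex I, 0.47 for ATP synthase, -1.20 for mitochondrially encoded mRNAs, -1.86 for olfactory and vomeronasal receptors, 0.79 for the cytoskeleton, 0.28 for the shortest and -0.93 for the longest quintile. For the cytoskeleton they were 1.04 at 20 CPM or more, 1.06 thinned, 1.06 in B-like and 1.05 in T-like cells. For the shortest quintile they were 0.57 at 20 CPM, 0.59 thinned, 0.57 in T-like cells and 0.62 without haemoglobin. For the longest quintile they were -0.65 at 20 CPM, -0.64 thinned, -0.60 in B-like and -0.64 in T-like cells, -0.59 without haemoglobin, -0.57 without the block, -0.58 with 300 genes and 10% mitochondrial counts and -0.58 in the 4 libraries without the block. Mitochondrially encoded mRNAs stood at -0.63 at 20 CPM and -0.62 in B-like cells, and complex I at 0.49 thinned. Leaving out 1 library gave 0.52 to 0.88 for complex I, 0.65 to 1.01 for ATP synthase, 0.42 to 0.76 for large-subunit and 0.26 to 0.82 for small-subunit ribosomal proteins, -0.84 to -0.62 for mitochondrially encoded mRNAs, -1.66 to -1.33 for olfactory and vomeronasal receptors, 1.07 to 1.26 for the cytoskeleton, 0.61 to 0.80 for the shortest and -0.55 to -0.50 for the longest quintile.

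Medians changed sign under library totals for mitochondrial carriers (-0.25), chaperones (-0.12), RAB GTPases (-0.092), splicing factors (-0.10), snoRNA host genes (-0.066), B cell markers (-0.21), interferon-stimulated genes (-0.27) and immediate early genes (-0.14). They did so elsewhere for protocadherins and ion channels (0.18 at 20 CPM, 0.16 in T-like cells), immunoglobulin variable genes (0.27 at 20 CPM, 0.51 thinned), T cell markers (-0.074 in B-like cells), NK markers (-0.30 in T-like cells), erythroid genes (-0.19 without haemoglobin, -0.32 in B-like cells) and interferon-stimulated genes (-0.037 without 3′ replicate 2). Single genes changed sign in T-like cells for Ccl5 (-0.023), Fcer1g (-0.62), Klrb1c (-3.61) and Tyrobp (-0.49). They did so in B-like cells for Igha (1.70), Ighg2b (0.94) and Trbc2 (-0.76). When 1 library at a time was left out, Eif3f ranged from -0.12 (without 5′ replicate 2) to 2.35, Ighg2b from -12.07 to 5.29 (without 3′ replicate 2), Ighg2c from -3.74 (without 5′ replicate 2) to 5.59 and Lyz2 from -0.019 (without 5′ replicate 1) to 1.85. The cause was not tested. Over all alternatives, values of named genes kept direction and call in 5078 cases, lost the call in 451, gained it in 28 and changed sign in 11. Libraries held 351335 to 2352116 counts in the fit. The simulated check covered genes of at least 20 CPM, so the difference detectable in lower genes at this depth was not measured.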

Other observations

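The other 4 genes that the test of T-like against B-like cells called were named after their values were seen. Ms4a4b, a surface protein of T cells, stood at 1877 and 2011 CPM in T-like cells of the 3′ libraries and at 1822 and 2503 CPM in those of the 5′ libraries. In B-like cells it stood at 148 and 122 CPM against 61.2 and 36.7 CPM, so the T-like minus B-like difference was 1.98 ± 0.25 (SE). 2010016I18Rik had the opposite sign at -2.06 ± 0.35, with 217 and 172 CPM against 85.4 and 67.5 CPM in T-like cells and 40.9 and 55.2 CPM against 53.5 and 81.4 CPM in B-like cells. Igfbp4, a binding protein of insulin-like growth factors, differed by 1.66 ± 0.38 and Hbb-bt, a beta-globin gene, by 2.96 ± 0.51.

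Of 23 immediate early genes, which cells induce within minutes of handling or stimulation, 8 rose and none fell (median 0.25), and under library totals alone 7 rose and 2 fell (-0.14). Nr4a1, an orphan nuclear receptor induced by antigen receptor signals, had 10.3 and 11.6 CPM in the 3′ libraries and 73.2 and 46.8 CPM in the 5′ libraries (2.29 ± 0.29). Zfp36, which binds AU-rich elements, rose by 1.37 ± 0.20 and Myc by 1.18 ± 0.22. At least 7 of the list rose whichever of the 4 libraries was left out.

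Selenoproteins, whose mRNAs recode a stop codon, held more rises than falls. Of those tested 43.75% rose and 12.5% fell, against 19.2% and 16.4% of all genes tested. Of 16 tested 7 rose and 2 fell (median 0.43, and 4 rises without 3′ replicate 1). Gpx1, the cytosolic glutathione peroxidase, had 958 and 388 CPM against 3473 and 1327 CPM (1.82 ± 0.21), while Selenok, of the endoplasmic reticulum, had 207 and 238 CPM against 50.9 and 64.9 CPM (-1.88 ± 0.22).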
